A study of Homo sapiens with 3 samples.

Results

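The genes described here encode the factors that mark and license replication origins in human cells. They are ORC1, ORC2, ORC3, ORC4, ORC5 and ORC6, CDC6, CDT1, GMNN and LRWD1, taken by symbol, and all 10 were found among the 58051 genes of the deposited counts. RNA was measured in 1 condition, untreated wild-type (WT) H9 cells, an established line of human embryonic stem cells (hESCs). The cells grew on plates coated with Vitronectin-XF, with Essential 8 Flex as medium, and total RNA of 3 replicates was depleted of ribosomal RNA and sequenced. The labels do not say whether the replicates were separate cultures, so that the spread between them may be technical. There is no second condition, hence the levels, their spread and their order are described and no difference between groups was tested.

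Licensing loads the MCM helicase onto DNA before S phase. The origin recognition complex (ORC) binds DNA, CDC6 joins it, and CDT1 brings the MCM2 to MCM7 complex, which is closed around the double helix in an inactive form. Geminin, the product of GMNN, binds CDT1 and blocks further loading after S phase has begun, and CDT1 and CDC6 are also removed by ubiquitin ligases, so that each origin is used once in a cell cycle. LRWD1, also known as ORCA, binds ORC and holds it on heterochromatin. The RNA of several of these genes rises and falls with the cell cycle, and a bulk library averages over the phases. In bulk RNA, fewer cells with a transcript and less of it per cell cannot be told apart.

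The 3 libraries held between 8655155 and 12024802 reads counted on genes. Replicate 3 stood apart, with an SD of log2 TPM ratios of 0.19 to replicate 1 and 0.18 to replicate 2, against 0.12 between replicates 1 and 2, taken across the 9946 genes that reached 100 counts in each. The label of the cells was checked against markers. All 8 pluripotency markers were in the upper tertile of expressed protein-coding genes, at 275 to 2576 TPM, and their summed level lay between 7478 and 7922 TPM across libraries. With the union of exons as gene length, none of the 15 markers of neural, mesendoderm, fibroblast, trophectoderm or blood cells was in that tertile. COL1A2, at 25.6 TPM, and MIXL1, at 22.3 TPM, were the highest of these 15, and CDX2 had 0 counts in every library. With the MANE Select transcript as length, explained below, the fibroblast marker COL1A2 was above the upper-tertile boundary of 26.4 TPM. It was the only one of the 15 above it.

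Levels are given in TPM, a unit that divides the reads of a gene by its length and scales every library to the same sum, so that genes can be compared within a library. The length used was the union of all annotated exons, and beside it the length of the MANE Select transcript, the single transcript that Ensembl and RefSeq agree on for a gene. For ORC1 both lengths were 3121 bp. For LRWD1 the union, 5899 bp, was 2.73 times its MANE Select transcript of 2160 bp, and for ORC6 the union of 4309 bp was 2.67 times 1615 bp. Of the annotated transcripts, 3 of 9 of ORC6 and 2 of 9 of LRWD1 are classed as retained introns. Reads do not tell here which transcripts were present, so both scales are shown.

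On the union scale, ORC1, CDC6 and GMNN were the highest of the 10 genes and LRWD1 the lowest. ORC1 had 140.1 ± 5.53 TPM (SD, n = 3), CDC6 139 ± 5.73 TPM and GMNN 133 ± 6.0 TPM. The order went on with CDT1, ORC2, ORC3, ORC6, ORC4, ORC5 and LRWD1. The values of the 3 libraries overlapped between ORC1 and CDC6 and between CDC6 and GMNN, so that these 3 genes could not be ordered. The other 7 pairs of neighbors in the order did not overlap. On the MANE Select scale, GMNN was highest at 157 ± 6.48 TPM, followed by CDC6 at 97.9 ± 3.64 TPM, and 4 of 9 pairs of neighbors overlapped. These were ORC6 and ORC1, CDT1 and ORC3, ORC3 and ORC2, and ORC4 and LRWD1. A paired comparison of 3 libraries cannot go below p = 0.25 in an exact two-sided test, and none was made.

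**Figure D1:**
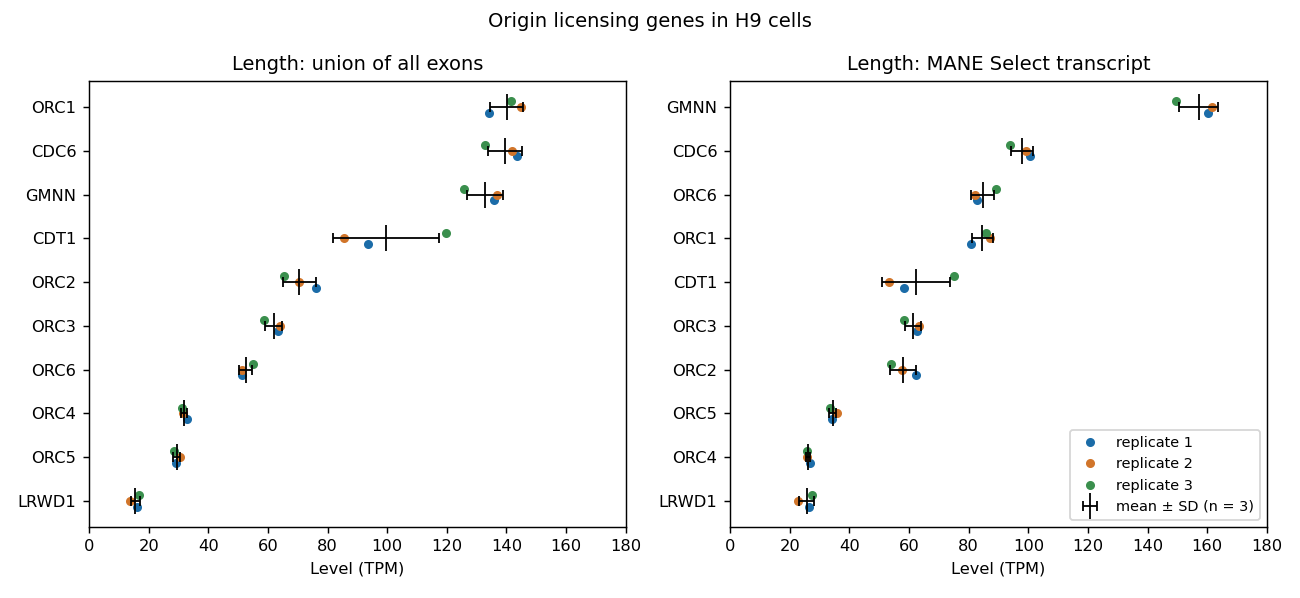
Level of each licensing gene in TPM (horizontal axis) in the 3 H9 libraries (colored points), with the mean and SD of the 3 (black), for lengths taken as the union of exons (left) and as the MANE Select transcript (right). Genes are sorted by mean in each panel. ORC6 has 52.6 TPM on the left and 84.6 TPM on the right, and CDT1 has the widest error bar in both panels.

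Among the subunits of ORC, ORC1 was highest on the union scale. ORC1, the largest subunit, carries an ATPase domain and a domain that binds histone H4, and its protein is degraded in S phase in human cells. The gene (ENSG00000085840) lies on the minus strand of chromosome 1, 52372829 to 52404423, with 17 exons. It had 134, 145 and 141 TPM in replicates 1, 2 and 3, from 1089, 1368 and 980 reads. All 3 libraries of ORC1 lay above all libraries of ORC2, ORC3, ORC4 and ORC5, on the union scale, with MANE Select lengths, where it had 84.6 ± 3.42 TPM, and with the longest transcript as length.

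ORC2 and ORC3 bind each other within the complex. ORC2 (ENSG00000115942, chromosome 2, 200908977 to 200963680, minus strand) had 76.2, 70.3 and 65.4 TPM in replicates 1 to 3. ORC3 (ENSG00000135336, chromosome 6, 87590067 to 87667453, plus strand) had 63.3, 64.0 and 58.6 TPM. Both were lowest in replicate 3. ORC2 was above ORC3 without overlap on the union scale, at 70.6 against 62.0 TPM, but on the MANE Select scale they overlapped, at 57.9 ± 4.24 and 61.3 ± 2.64 TPM, and ORC3 had the higher mean. A processed pseudogene on chromosome 11, 79987513 to 79989635, is 93.1% identical to the coding sequence of ORC3 over an alignment of 2136 bp, its whole length. It had 0 counts in all libraries. Another processed pseudogene, on chromosome 16, 46851027 to 46851254, matches ORC3 over 228 bp at 89.9% identity and also had 0 counts. How reads that match several places were treated is not given in the sources used here.

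ORC4 and ORC5, whose proteins have ATPase folds like that of ORC1, were the lowest subunits. ORC4 (ENSG00000115947, chromosome 2, 147930396 to 148021604, minus strand) had 32.8, 31.6 and 31.1 TPM, a coefficient of variation (CV) of 2.77%. ORC5 (ENSG00000164815, chromosome 7, 104126341 to 104208047, minus strand) had 29.2, 30.6 and 28.4 TPM, a CV of 3.76%. Their values did not overlap in either scale, but their order turned, with ORC4 above ORC5 on the union scale and ORC5, at 34.4 ± 1.19 TPM, above ORC4, at 26.2 ± 0.654 TPM, on the MANE Select scale. The MANE Select transcript of ORC4 has a 3' UTR of 5114 bp beside a coding length of 1311 bp, the longest 3' UTR of the 10 genes.

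ORC6, the smallest subunit and the one not built like the others, moved up the order with MANE Select lengths. The gene (ENSG00000091651, chromosome 16, 46689643 to 46698394, plus strand) had 51.4, 51.2 and 55.1 TPM on the union scale, highest in replicate 3. It was 1.12 ± 0.0909 times the median of ORC2 to ORC5 within a library on the union scale and 1.84 ± 0.177 times on the MANE Select scale. With MANE Select lengths its 3 libraries, at 82.6, 82.2 and 89.1 TPM, lay above all those of ORC2 to ORC5, whereas on the union scale only ORC4 and ORC5 were below it without overlap. The highest subunit was 4.77 ± 0.195 times the lowest within a library on the union scale and 3.30 ± 0.207 times on the MANE Select scale.

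CDC6, the ATPase that joins ORC and is closely related to ORC1, had the most reads of the 10 genes. It had 1986, 2279 and 1567 reads and 144, 142 and 133 TPM in replicates 1, 2 and 3. The gene (ENSG00000094804) lies on the plus strand of chromosome 17, 40287879 to 40304657. Within a library CDC6 was at 1.07, 0.979 and 0.940 times the TPM of ORC1, with a mean of 0.997 ± 0.0678, and at 1.16 ± 0.0789 times on the MANE Select scale. CDC6 was above ORC2, ORC3, ORC4 and ORC5 in all libraries without overlap on the union, MANE Select and longest-transcript scales.

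CDT1, which carries the helicase to ORC and CDC6, varied most between libraries. The gene (ENSG00000167513) lies on the plus strand of chromosome 16, 88803789 to 88809258, and has a span of 5.5 kb, the shortest of the 10. It had 673, 715 and 733 reads, although replicate 3 is the smallest library, and these gave 93.7, 85.6 and 119.7 TPM. Replicate 3 was thus above the other libraries, and the mean was 99.6 ± 17.8 TPM, or 62.3 ± 11.4 TPM with MANE Select lengths. Without replicate 3 the means were 89.6 and 55.9 TPM. CDT1 was above ORC2 and ORC3 without overlap on the union scale only.

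GMNN encodes geminin, the inhibitor of CDT1. The gene (ENSG00000112312, chromosome 6, 24774931 to 24786099, plus strand) had 136, 137 and 126 TPM in replicates 1 to 3. GMNN was above CDT1 in every library in TPM, although in replicate 3 CDT1 had more reads, 733 against 692. The ratio of GMNN to CDT1 was 1.45, 1.60 and 1.05 in replicates 1, 2 and 3, with a mean of 1.37 ± 0.282. It was 2.74, 3.02 and 1.99 on the MANE Select scale, with a mean of 2.59 ± 0.534, since the union of GMNN exons is 1.96 times its MANE Select transcript and that of CDT1 1.04 times. These are ratios of RNA, and protein was not measured. Other members of the geminin family, GMNC and MCIDAS, which act in multiciliated cells, had 0 to 2 reads in any library, and a count of 0 allows up to 3 reads.

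LRWD1 was the lowest of the 10 genes on both scales and had the fewest reads. The gene (ENSG00000161036) lies on the plus strand of chromosome 7, 102464956 to 102473168. It had 247, 247 and 218 reads and 16.1, 13.8 and 16.7 TPM. Its level was 0.271 ± 0.0274 times the median of ORC1 to ORC6 within a library on the union scale and 0.431 ± 0.0576 times on the MANE Select scale, where its libraries, with a mean of 25.6 TPM, overlapped those of ORC4.

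The levels were placed among all genes. The study sorted expressed genes into 3 quantiles of TPM, with abundances from Cufflinks. A like division was made here from counts and exon lengths, for 16968 protein-coding genes with at least 0.01 TPM. Of the 10 licensing genes, 9 lay in the upper tertile, above 27.0 TPM, and LRWD1 lay in the middle tertile, where 1 in 3 expressed genes lies in each class by construction. ORC1 was above 93.8% of expressed protein-coding genes, CDT1 above 90.4% and ORC5 above 68.7%. The median of the 10 genes was 66.3 TPM and that of all expressed protein-coding genes 11.7 TPM. ORC5 and ORC4 were close to the boundary. With MANE Select lengths 8 of 10 genes were in the upper tertile, as ORC4 fell below a boundary of 26.4 TPM, and among genes with at least 1 TPM, for which the tertile begins at 37.9 TPM, 7 were.

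Replicate error was compared with counting error. A chi-square of the 3 counts per degree of freedom is near 1 where counting alone sets the spread. It was 0.269 for ORC4, 0.297 for ORC5, 0.782 for ORC3 and 0.901 for GMNN, so the libraries differed by no more than sampling would give. It was 1.45 for CDC6, 1.59 for ORC6, 2.39 for ORC1, 2.62 for LRWD1 and 4.27 for ORC2. Leaving out 1 library gave a lowest value of 0.0128 for ORC1 and 1.44 for ORC2 without replicate 1. It was 0.388 for LRWD1 without replicate 2, and 0.0752 for CDC6 and 0.000364 for ORC6 without replicate 3. This lowest value takes the closest 2 of 3 libraries for any gene, so it cannot show that a single library decided the spread. For ORC2 the chi-square stayed above 1 in every case and reached 8.19 without replicate 2. For CDT1 it was 24.9, above that of 99.1% of the 1495 protein-coding genes with a mean count between 0.8 times its own and the inverse of that factor, whose median was 1.47. Among 93 genes that were also like CDT1 in GC content, within 2.5 percentage points, the median was 6.87 and CDT1 lay above 96.8% of them, and for LRWD1 the median of 147 such genes, 2.63, was no lower than its own 2.62. Without replicate 3 the value was 2.54 for CDT1, below the 4.08 of ORC1, the 3.45 of ORC2 and the 2.64 of LRWD1. The biological coefficient of variation of edgeR, the spread left after counting error and shared in part between genes, was 0.0904 for CDT1 and between 0.0463 and 0.0742 for the other 9 genes. With all 3 libraries it was above the median of genes with like counts for 3 genes, ORC2, CDT1 and LRWD1. With 2 libraries the values of most genes lay so close to that median that being above or below it says little. Without replicate 2, ORC2 was above at 0.0694 against 0.0641, and CDT1 at 0.0793 against 0.0642. Other genes were above by small margins, such as ORC5 at 0.0362 against 0.0361 without replicate 3. They were ORC5 and LRWD1 without replicate 1, CDC6 without replicate 2, and ORC5, ORC6, CDC6 and LRWD1 without replicate 3. CDT1 was at 0.0618 against 0.0620 without replicate 1. None of the 10 was above in every case.

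Replicate 3 differed from the other libraries with the GC content of genes, and CDT1 and LRWD1 are rich in GC. Their MANE Select transcripts have 64.3% and 64.0% GC, whereas those of the other 8 genes have between 37.4% and 50.7%. The log2 ratio of TPM in replicate 3 to the mean of replicates 1 and 2 was 0.42 for CDT1 and 0.15 for LRWD1. It was 0.10 for ORC6 and 0.02 for ORC1, and between -0.16 and -0.05 for ORC2, ORC3, ORC4, ORC5, CDC6 and GMNN. Among 93 protein-coding genes with counts and GC content like those of CDT1, the median was 0.21 and the 95th percentile 0.39, so that CDT1 lay above 95.7% of them. For LRWD1 the median of 147 such genes was 0.20, above the value of LRWD1 itself. The part of GC content in the level of CDT1 in replicate 3 was not tested.

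**Figure D2:**
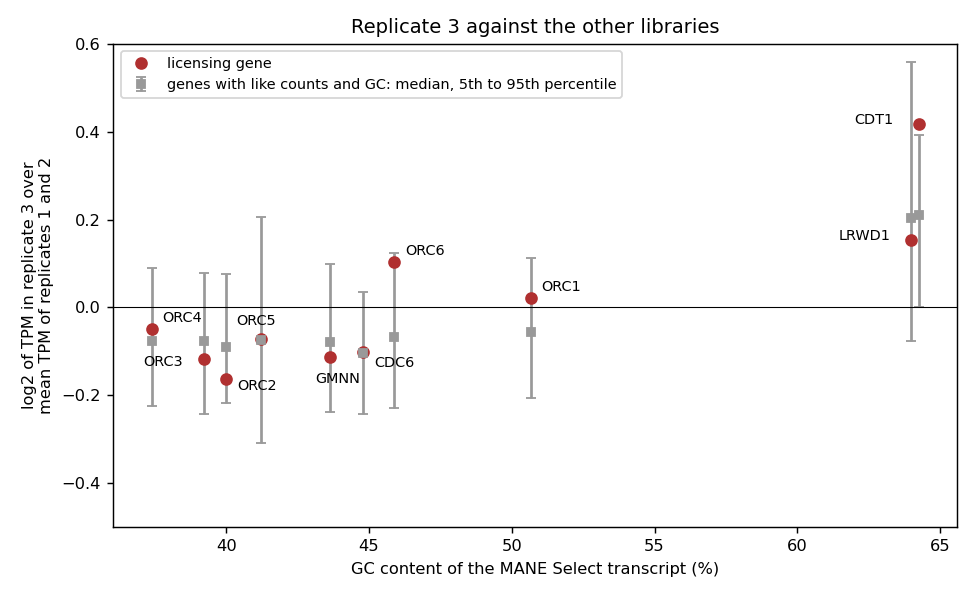
Log2 ratio of TPM in replicate 3 to the mean of replicates 1 and 2 (vertical axis) against the GC content of the MANE Select transcript in percent (horizontal axis) for the 10 licensing genes (red). Gray squares and bars give the median and the 5th to 95th percentiles of protein-coding genes with like counts, between 0.8 times and the inverse of that factor, and a GC content within 2.5 percentage points. CDT1, at 0.42, lies above its bar, and the other 9 genes lie within theirs.

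Exons shared with other genes could add reads to a few members. On the opposite strand, the exons of ORC4 share 431 bp (4.83% of its union of exons) with ACVR2A and 157 bp with MBD5, those of ORC2 share 256 bp (4.39%) with the lncRNA gene ENSG00000183308, and those of LRWD1 share 41 bp with POLR2J. ENSG00000183308 had 31, 37 and 37 reads in replicates 1 to 3, against 1156, 1240 and 846 for ORC2. Per kb of exons, summed over the 3 libraries, it had 108 reads against 556 for ORC2. ACVR2A had 154 and MBD5 28.9 reads per kb, against 250 for ORC4. POLR2J was denser than the member it overlaps, with 312 reads per kb against 121 for LRWD1. How many reads the shared exons added was not tested. On its own strand LRWD1 holds the microRNA genes MIR5090 and MIR4467, over 85 and 63 bp. The exons of ORC1, ORC3, ORC5, ORC6, CDC6, CDT1 and GMNN are shared with no other gene in the annotation. Whether the counting used strand is not given in the sources used here.

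Several members start next to a gene on the other strand. For 5 of 10, ORC1, ORC3, ORC4, ORC6 and LRWD1, the MANE Select start of a coding gene in divergent orientation lay within 1000 bp upstream. Among 18964 protein-coding genes with a MANE Select transcript this held for 9.39%, and for 14.5% of those in the upper tertile of expression. The count was 5 with limits of 500 and 2000 bp as well. The start of PRPF38A, a splicing factor gene, lies 179 bp from that of ORC1, and that of RARS2, the mitochondrial arginyl-tRNA synthetase gene, 148 bp from that of ORC3. VPS35, a retromer subunit gene, starts 481 bp from ORC6, MBD5 354 bp from ORC4 and ALKBH4 121 bp from LRWD1.

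Genes of a pair were not at the same level. PRPF38A had 66.2 ± 2.31 TPM beside 140.1 TPM for ORC1, and VPS35 had 44.6 ± 2.82 TPM beside 52.6 TPM for ORC6. MBD5 had 3.70 ± 0.101 TPM beside 31.8 TPM for ORC4, and ALKBH4 had 21.3 ± 1.84 TPM beside 15.5 TPM for LRWD1. RARS2 had 8.82 ± 0.243 TPM beside 62.0 TPM for ORC3 on the union scale, and 41.8 ± 1.04 against 61.3 TPM on the MANE Select scale. On the union scale the licensing gene was thus the higher of the pair for 4 of 5 pairs and the lower for LRWD1. On the MANE Select scale LRWD1, at 25.6 TPM, was above ALKBH4, at 14.1 ± 1.21 TPM.

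The windows of ORC1 and LRWD1 are shown as 2 of 3 that hold both starts of a pair. That of ORC3 also does, and is given further on for its motif, where the start of RARS2 is not marked. They run from 250 bases before to 50 bases after the start, as given by RefSeq on GRCh38.p14, and are written 5′ to 3′ on the strand of the licensing gene. Capitals mark the bases from the start of the other gene to that of ORC1 (chr1:52404374-52404673, minus strand) or LRWD1 (chr7:102464734-102465033, plus strand).
ORC1: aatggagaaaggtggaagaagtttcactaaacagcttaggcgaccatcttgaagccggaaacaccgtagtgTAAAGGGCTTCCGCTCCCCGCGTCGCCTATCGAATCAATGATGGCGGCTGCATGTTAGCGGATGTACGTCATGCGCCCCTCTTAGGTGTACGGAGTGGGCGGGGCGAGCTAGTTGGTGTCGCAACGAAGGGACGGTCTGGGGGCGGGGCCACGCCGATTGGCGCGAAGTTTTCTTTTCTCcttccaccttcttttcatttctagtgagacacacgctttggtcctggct
LRWD1: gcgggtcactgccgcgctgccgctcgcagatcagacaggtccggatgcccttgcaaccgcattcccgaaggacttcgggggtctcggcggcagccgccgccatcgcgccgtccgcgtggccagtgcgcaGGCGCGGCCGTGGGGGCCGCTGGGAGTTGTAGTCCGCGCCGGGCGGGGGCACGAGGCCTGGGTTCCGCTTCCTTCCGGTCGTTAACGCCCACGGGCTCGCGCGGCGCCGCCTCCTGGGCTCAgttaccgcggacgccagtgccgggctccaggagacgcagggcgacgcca

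E2F factors activate many genes of the G1 to S transition, CDC6 and ORC1 among those known as their targets, and RNAs of 7 E2F and pocket protein genes were present at 14.1 to 97.1 TPM. The windows of the 10 genes, all of which had at least 1 RefSeq promoter, were searched on both strands for the 8-letter forms TTTGGCGC, TTTCCCGC, TTTGCCGC and TTTCGCGC of the E2F motif. A match was found for 4 of 10 genes, CDC6, CDT1, GMNN and ORC3. The same held for 5.46% of 15251 protein-coding genes with a RefSeq promoter, 8.01% of those in the upper tertile of expression and 3.31% of all 35116 windows. ORC1 held none of the 8-letter forms, although its mean was among the 4 highest on the union scale, with those of CDC6, GMNN and CDT1. On the MANE Select scale ORC6 and ORC1, both without a match, were above CDT1. A relation between matches and level was not tested. A match is a description of letters and was not tested as a site.

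The sequences that hold the matches are shown with the motif in capitals. In CDC6 (chr17:40287629-40287928) TTTGGCGC begins at position 7, counted from 0 at the first transcribed base. In CDT1 (chr16:88803539-88803838) and ORC3 (chr6:87589885-87590184) the motif TTTCCCGC lies on the other strand and reads GCGGGAAA, beginning at position -35 in CDT1 and -12 in ORC3. For GMNN the MANE Select start had no match, and TTTGGCGC lies at position -80 of another RefSeq start, and its first base is 396 bases downstream of the MANE Select start. A stretch of 30 bases around it is given (chr6:24775322-24775351). All 4 are on the plus strand.
CDC6: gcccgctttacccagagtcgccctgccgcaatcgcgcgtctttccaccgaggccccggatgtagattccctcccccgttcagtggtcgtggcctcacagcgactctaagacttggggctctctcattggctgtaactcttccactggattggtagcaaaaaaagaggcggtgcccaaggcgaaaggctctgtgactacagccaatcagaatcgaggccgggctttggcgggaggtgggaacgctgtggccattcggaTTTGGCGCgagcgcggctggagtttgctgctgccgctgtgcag
CDT1: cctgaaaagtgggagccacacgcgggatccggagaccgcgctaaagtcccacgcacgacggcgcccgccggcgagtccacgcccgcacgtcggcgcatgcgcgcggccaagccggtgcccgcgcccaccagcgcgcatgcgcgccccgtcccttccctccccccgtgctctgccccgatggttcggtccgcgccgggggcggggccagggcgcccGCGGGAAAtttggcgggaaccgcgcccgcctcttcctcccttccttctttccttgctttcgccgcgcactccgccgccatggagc
ORC3: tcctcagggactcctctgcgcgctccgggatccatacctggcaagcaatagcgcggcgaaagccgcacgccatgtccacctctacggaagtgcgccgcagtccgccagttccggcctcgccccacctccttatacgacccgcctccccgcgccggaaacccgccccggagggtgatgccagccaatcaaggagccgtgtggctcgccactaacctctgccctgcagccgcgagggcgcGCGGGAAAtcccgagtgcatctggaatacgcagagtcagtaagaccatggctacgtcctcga
GMNN: gctgggtcggtTTTGGCGCgctctcacttc

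**Figure D3:**
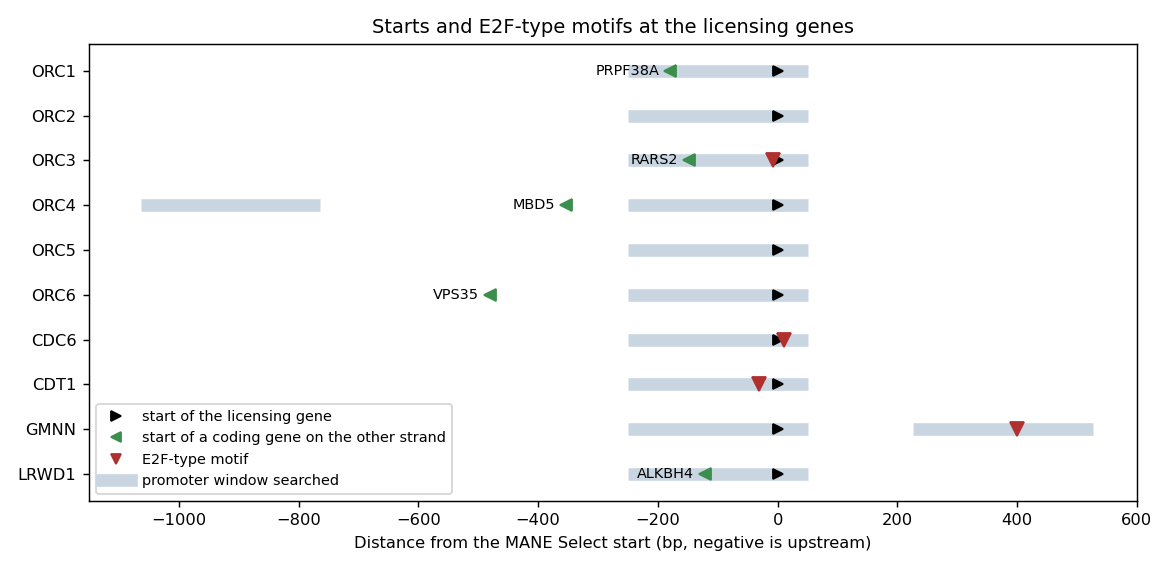
Distance in bp from the MANE Select start of each licensing gene (horizontal axis, negative is upstream, transcription to the right), with the promoter windows searched (bars), E2F-type motifs (red) and starts of coding genes on the other strand within 1000 bp (green). Windows away from 0 belong to other RefSeq starts of GMNN and ORC4. Divergent starts are seen at 5 genes, and motifs at 4, of which ORC3 has both.

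The loaded helicase was well above its loaders. All 6 genes of MCM2 to MCM7 were in the upper tertile, with a median of 275 TPM, from MCM5 at 189.6 ± 7.25 TPM to MCM3 at 539 ± 20.8 TPM. Each was above every licensing gene on the union scale. The median of MCM2 to MCM7 was 4.84, 4.91 and 4.67 times the median of ORC1 to ORC6 in replicates 1, 2 and 3, and 4.98 ± 0.214 times on the MANE Select scale. Within the helicase the highest gene was 2.85 ± 0.207 times the lowest, less than the 4.77 ± 0.195 times of ORC, and the difference was smaller on the MANE Select scale, at 2.80 ± 0.163 and 3.30 ± 0.207 times. Of the other MCM proteins, MCM10 was at 74.9 TPM, MCMBP, which binds free MCM proteins, at 112 TPM, MCM8 at 41.0 TPM and MCM9 at 9.51 TPM.

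Genes linked to the turnover of CDT1 and CDC6, and those that act after licensing, were read in the same libraries. Of 11 genes on the turnover list 9 were in the upper tertile, with a median of 77.0 TPM. The list is broad and not all of its genes act to destroy CDT1 or CDC6. It also holds CDC20, at 353 TPM, and USP37, at 30.5 TPM. PCNA, the clamp on which CDT1 is marked for destruction, had 802 ± 36.4 TPM, and DTL, the adaptor that recognizes it there, 106 ± 6.47 TPM. SKP2, another adaptor for CDT1, had 31.3 ± 0.780 TPM on the union scale and 88.3 ± 1.88 TPM on the MANE Select scale. FZR1, the adaptor of the anaphase-promoting complex in G1, was in the middle tertile at 25.5 ± 1.59 TPM. Among kinases and cyclins 6 of 7 were in the upper tertile, CCNA2 highest at 324 ± 13.7 TPM, CDC7 at 102 ± 3.76 TPM, and CCNE2, in the middle tertile, at 12.9 ± 0.909 TPM on the MANE Select scale.

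Of 9 genes for activation of the helicase 7 were in the upper tertile, with a median of 61.3 TPM, close to the 66.3 TPM of the licensing genes. Of 7 genes of the HBO1 complex, a histone acetyltransferase that works with CDT1 at origins, 4 were in the upper tertile, and its catalytic subunit gene KAT7 had 112 ± 10.8 TPM. Of the 7 E2F and pocket protein genes, 3 were, E2F4 highest at 97.1 ± 4.08 TPM. None of the genes on these lists of replication genes was in the lower tertile, apart from GMNC, and MCIDAS was below 0.01 TPM.

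**Figure D4:**
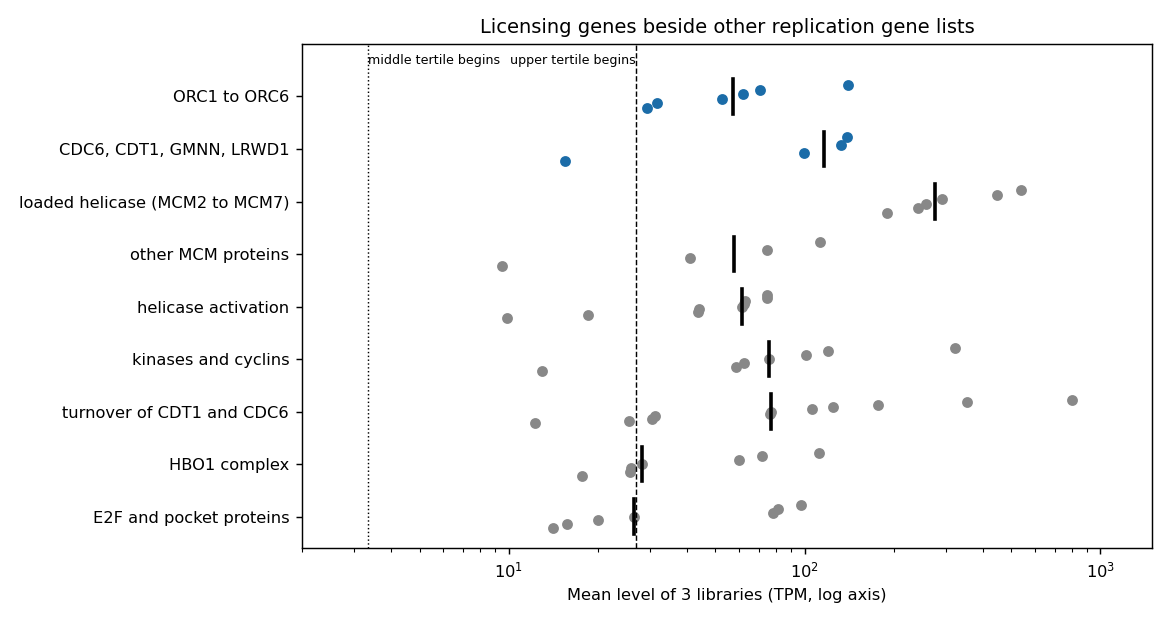
Mean level of 3 libraries in TPM on a log axis for the licensing genes (blue) and for other lists of replication genes (gray), a point for each gene and a black bar at the median of each list. The dashed line marks the beginning of the upper tertile of expressed protein-coding genes, at 27.0 TPM, and the dotted line that of the middle tertile, at 3.35 TPM. MCM2 to MCM7 lie to the right of all licensing genes.

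For each member the protein-coding gene outside these lists with the most similar level in the 3 libraries was found, as the smallest Euclidean distance of log2(TPM + 1) over the 3 libraries. With 1 condition, this is a likeness of level and of scatter between libraries. It was POLE2 for ORC5, at a distance of 0.0067, ADSS2 for CDC6, at 0.0169, and MTREX for GMNN, at 0.0143. For CDT1, whose nearest gene was SF3A2 at 95.8, 82.1 and 113.7 TPM, the distance of 0.100 was the largest of the 10.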

How the data were processed

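Total RNA of 3 H9 libraries was measured. The authors trimmed reads with Trim Galore (version 0.4.4) and aligned them to GRCh38 with TopHat2 (version 2.1.1), and they deposited counts, which are raw and not normalized. Not given in the sources used here are the counting tool, the annotation behind it and any use of strand. The 3 libraries form 1 group, by their titles.

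Identifiers were joined to GENCODE release 44, on the same build, and 56948 of 58051 matched. TPM used the union of exons, with MANE Select and the longest transcript as alternatives. Spread was fitted with edgeR (version 4.0.16) with only an intercept and checked on simulated counts. DESeq2 (version 1.42.0) gave size factors. The count of a member is 218 to 2279 reads per library, and intervals of such counts cover counting error only. Coding sequences were searched in the genome with blastn for copies of at least 75 bp and 85% identity. A divergent start lies upstream or at most 100 bp downstream. Named genes were the members, fixed pathway and marker lists, genes overlapping or starting beside a member, and the nearest gene in level. The members and lists were chosen with earlier results of these data known. The comparison with genes of like GC content was chosen after seeing the data.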

Additional observations from a re-analysis of the deposited data

How the results depend on the processing

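The median of the licensing genes, 66.3 TPM, was 61.8 TPM with MANE Select and 77.0 TPM with longest-transcript lengths, 82.1 TPM with only protein-coding genes in the total, which raises every TPM, and 70.7 CPM, which is another unit. The 2 overlapping pairs of neighbors became 4 with MANE Select lengths, TMM factors or DESeq2 size factors, and the cause was not tested. The ratio of GMNN to CDT1, 1.37, was 2.59 with both other lengths and 1.23 by CPM, and that of the highest to the lowest ORC subunit, 4.77, was 3.30 with MANE Select and 3.31 with longest-transcript lengths, and 4.07 by CPM. With the last 6 letters of the E2F motif, 10 in place of 4 genes had a match, as did 65.9% of protein-coding genes and 81.0% of those in the upper tertile. Without replicate 1, 2 or 3 the median lay between 64.6 and 68.4 TPM, the ratio of GMNN to CDT1 between 1.251 and 1.52, that of ORC subunits between 4.66 and 4.85, and 2 pairs overlapped each time. The number of genes in the upper tertile stayed between 7 and 9 in all alternatives run. The level of 9 of 10 genes moved by more than its SD with MANE Select lengths, 4 higher and 5 lower, and that of 0 genes with TMM or DESeq2 factors. No paired analysis was possible because all libraries come from 1 group.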

Other observations

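The helicase gene RECQL4, which acts in helicase activation, had its highest level in replicate 3, as CDT1 did, and was picked out after its values were seen. It had 486, 508 and 540 reads and 41.3, 37.2 and 53.9 TPM in replicates 1, 2 and 3. Other listed genes, such as ORC6, LRWD1, E2F1 and SOX2, also had their highest TPM in replicate 3, so this is not particular to RECQL4 and CDT1. The part of GC content in the level of RECQL4 in replicate 3 was not tested.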
